A study of Schizosaccharomyces pombe with 12 samples.

Results

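The genes described here encode the proteasome and polyubiquitin of fission yeast, Schizosaccharomyces pombe. They were taken by PomBase name: every rpn, rpt, pre, pup or pts gene followed by a number, with pam1 and ubi4 added. The rule found 33 of the 12683 genes in the count table. Of these, 19 encode the 19S regulatory particle, namely the 6 ATPase genes rpt1, rpt2, rpt3, rpt4, rpt5 and rpt6 and the 13 other genes rpn2, rpn3, rpn501, rpn502, rpn6, rpn7, rpn8, rpn9, rpn10, rpn11, rpn12, rpn1301 and rpn1302. Another 13 encode the 20S core particle, namely the 6 alpha subunit genes pre5, pre6, pre8, pre9, pre10 and pup2 and the 7 beta subunit genes pre1, pre3, pre4, pup1, pup3, pts1 and pam1. The last member, ubi4, encodes polyubiquitin. The annotation gives 3 further subunit genes whose names fall outside the rule: mts4 (Rpn1), scl1 (alpha 1) and dss1. All 33 members passed the filter on low counts and were tested.

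PolyA RNA was sequenced from wild type strain 972 (WT) and from strains labelled ubp8 and ubp16, for genes that encode ubiquitin-specific proteases. The design text calls these genes deleted, and the labels do not say which part of each was removed. Strains are named as labelled, since transcripts of both genes were still counted in their own strains, as given below. All cultures were grown in YE5S, a rich medium, at 30 degrees to an optical density of 0.5, and were left untreated or given 1 mM hydrogen peroxide for 30 min. There were 2 libraries in each of the 6 groups. Neither the mating type of the mutants nor the number of cultures behind a group's 2 libraries is stated in the labels, so p-values measure only the spread between these samples.

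The proteasome degrades proteins that carry chains of ubiquitin, a small protein attached through the successive action of E1, E2 and E3 enzymes. The 20S core is a barrel of stacked rings: the outer alpha rings control entry, and some of the inner beta subunits carry the protease sites. The 19S particle caps the barrel. Its ring of ATPases unfolds substrates and opens the core, and its other subunits bind ubiquitin chains and, through Rpn11, remove them. Ubiquitin itself is made as fusions, either head-to-tail repeats (polyubiquitin) or single copies joined to a ribosomal protein. In yeasts the polyubiquitin gene is known as a stress gene, while the ribosomal fusions supply ubiquitin during growth.

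The repeated sequence of ubi4 is shown because it bears on how surely its reads can be placed. The gene lies on chromosome II from 1044271 to 1045592, minus strand, in 1 exon (RefSeq, build ASM294v3, used for all coordinates and sequences here). Its coding sequence of 1149 bases holds 5 ubiquitin units of 76 residues that are identical in protein, followed by 2 residues. In DNA the 5 units all differ, and units 2 to 5 match unit 1 at 93.0% to 94.3% of 228 bases. The first 60 bases of units 1 and 2 follow, 5′ to 3′, with capitals where unit 2 differs from unit 1. Units 3, 4 and 5 begin with the same 60 bases as unit 2.
ubi4 unit 1: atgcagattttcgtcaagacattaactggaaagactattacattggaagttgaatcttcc
ubi4 unit 2: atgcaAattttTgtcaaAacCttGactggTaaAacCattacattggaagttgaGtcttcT

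Because of these repeats, 63.3% of the 100-base windows of ubi4 occurred more than once in the genome, and 78.6% of the 50-base windows. The pair rpn501 and rpn502, which encode the lid subunit Rpn5, shared 1330 of 1332 coding bases and all 443 residues, and 84.4% of the 100-base windows of each were repeated. Reads of these 3 genes may therefore be lost or split in the authors' counting, and their values are uncertain. No 50-base window was repeated in the other 30 members. The name pair rpn1301 and rpn1302, which encode forms of the ubiquitin receptor Rpn13, was no such case, with 27.2% of aligned residues identical.

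The members' promoters were searched for the sites of known stress factors, since most of the members rose after peroxide. The windows ran from 250 bases before to 50 after each annotated gene start, on both strands. TTAGTCA, a form of the site of the oxidative stress factor Pap1, was in 4 of 33 members (12.1%) and in 4.5% of all 5112 coding gene windows. Those 4 sites are shown with 15 bases on each side, read on the strand of the gene, with the match in capitals.
pts1 (chrI:2576036-2576072, minus strand): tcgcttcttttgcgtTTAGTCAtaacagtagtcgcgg
pup1 (chrI:4350926-4350962, plus strand): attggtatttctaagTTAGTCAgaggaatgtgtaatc
pup2 (chrI:3910602-3910638, minus strand): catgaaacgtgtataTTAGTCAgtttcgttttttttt
rpn6 (chrI:887541-887577, plus strand): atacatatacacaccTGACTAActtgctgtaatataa

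In rpn6 the letters run on the opposite strand. The sites lay 108, 27, 219 and 92 bases before the gene starts of pts1, pup1, pup2 and rpn6. A second Pap1 form, TTACTAA, was in 6 of 33 members (18.2%) and 613 of the 5112 windows, and the palindrome TTACGTAA was in 0 members and 0.5% of windows. The Atf1 site TGACGT was in rpn12 alone (3.0% of members, 5.9% of windows), and CAGTCACA, a box of ribosomal protein genes, in pre10 alone (3.0% and 2.7%). The members held neither the heat shock element (0.5% of windows) nor GGTGGCAAA, the shared proteasome element of budding yeast (0.1% of windows). Nor did they hold CAGTCACG (1.2% of windows) or ACCCTACC (1.6%). The motifs overlap in part, and a match is no evidence of binding.

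Total counts per library ran from 9904056 to 14054746. Values are CPM, counts scaled to a common library size by TMM, and 3 counts came to 0.185 to 0.316 CPM, which covers counting error only. The lowest count of any member in any library was 268. CPM is a share of the sequenced RNA, so a change in the total RNA per cell would not be seen. Transcripts of the targeted genes were lower but not absent in their strains: ubp8 was at 8.34 to 10.6 CPM in the 4 ubp8 libraries against 29.9 to 37.5 in WT, and ubp16 at 22.2 and 25.0 CPM in untreated ubp16 against 46.7 and 54.3 in untreated WT. After peroxide ubp16 was at 9.38 and 12.99 CPM in the ubp16 libraries and at 20.5 and 25.6 in WT. The ubp16 transcript thus stood at 46.5% (untreated) and 48.4% (treated) of WT in the strain labelled ubp16, and at 63.8% of WT in untreated ubp8 (adjusted p = 0.00335). Counts over a whole gene do not check a deletion of part of it, so these labels were not settled by the counts. The catalase gene ctt1, a standard sign of the peroxide response, rose by 4.33, 4.61 and 3.75 (log2) in WT, ubp8 and ubp16. The sources used here do not give the counting strand, and 30 of the 33 members have exon sequence opposite another gene's exon. On the same strand 2 members, rpn11 and rpn12, share exon bases with another gene.

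In untreated WT most subunit genes stood at similar levels per length. The median was 178 CPM per kb of exon for 19S genes and 184 for 20S genes. Among 20S genes the levels spanned 2.95-fold, from pre8 (alpha 2) at 126 CPM per kb to pup2 (alpha 5) at 370. Among 19S genes rpt2 was highest at 269 CPM per kb, and the uncertain copies rpn501 and rpn502 were lowest at 18.9 and 29.9. The Rpn13 genes rpn1301 and rpn1302 were next, at 61.5 and 98.8 CPM per kb. Polyubiquitin, at 43.9 CPM per kb, was low beside the 4 ubiquitin fusion genes, which ran from 1130 (ubi2) to 8930 (ubi3). The ubi4 level may be too low, since reads in its repeats may be lost.

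Nearly all proteasome genes rose after peroxide in each strain. In WT 29 of 33 members rose and 1 fell at an adjusted p under 0.05 (edgeR quasi-likelihood test, adjusted over all 8166 genes tested), where 26.2% of all genes were called higher and 27.0% lower. In ubp8 32 members rose and 0 fell, against 28.0% and 25.8% of genes. In ubp16 32 rose and 0 fell, against 25.2% in each direction. Both counts of 0 by edgeR were also 0 at an unadjusted p under 0.05, with DESeq2 and with limma-voom. The median log2 fold change of the members was 0.65 in WT, 0.75 in ubp8 and 0.70 in ubp16, beside medians over all genes of -0.04, -0.06 and -0.05. Most changes were under 2-fold: 5 members were called higher at 2-fold or more in WT, 5 in ubp8 and 3 in ubp16.

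Between strains, 29 members (87.9%) rose in all 3 responses, as did 15.1% of all genes tested. The 4 others were rpt1, rpn1301, rpn1302 and pre5. The 3 responses share no library, and across the 32 members other than ubi4 their log2 fold changes had Pearson correlations of 0.60 (WT and ubp8), 0.59 (WT and ubp16) and 0.51 (ubp8 and ubp16), over genes that are not independent. In the treated libraries the members took 1.08% to 1.20% of all counts, against 0.752% to 0.868% in the untreated ones, so these ranges did not overlap.

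**Figure D1:**
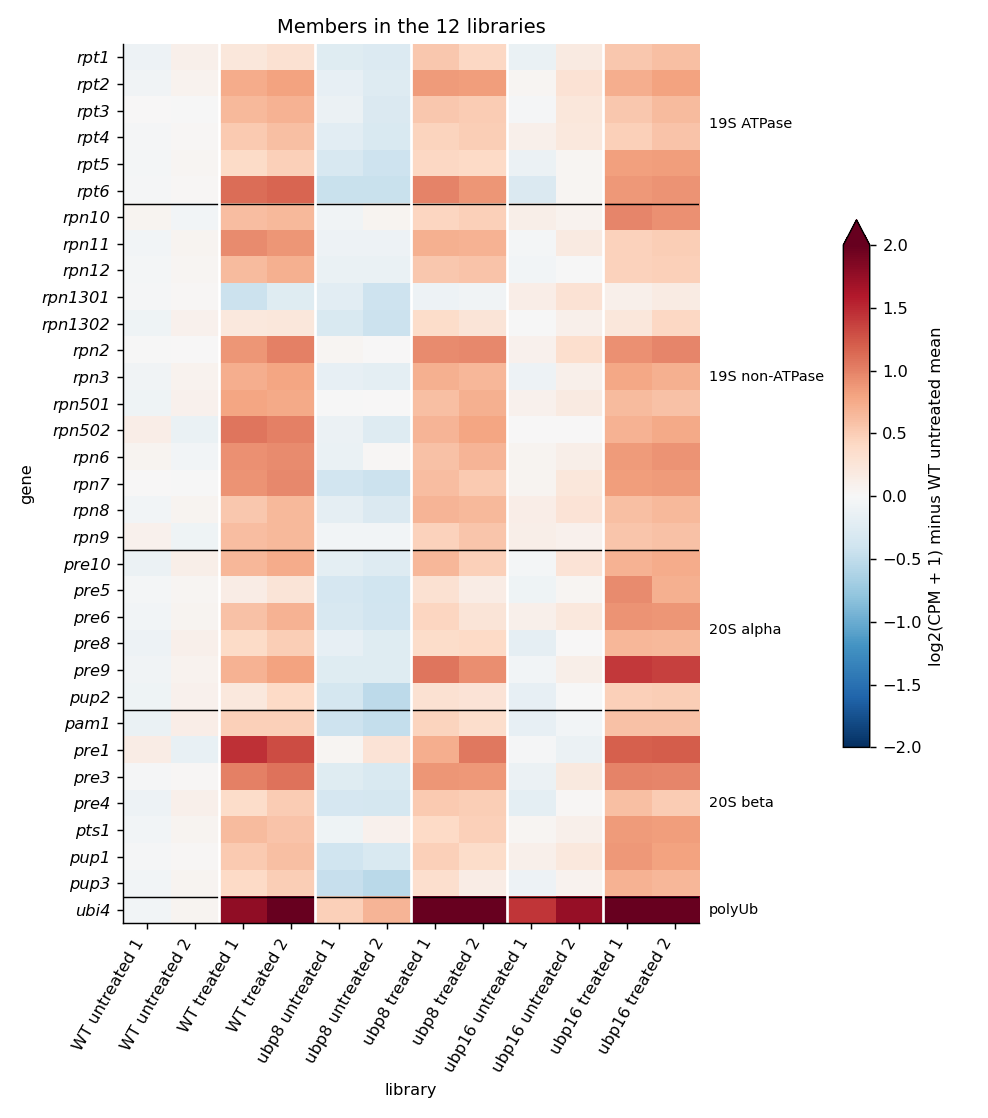
Level of each of the 33 members (rows, by class) in each of the 12 libraries (columns), as log2(CPM + 1) minus the mean of the 2 untreated WT libraries; the colour scale stops at 2. All treated libraries are red for nearly every row, rpn1301 stays pale or blue in treated WT, and ubi4 is red in the untreated mutants as well.

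**Figure D2:**
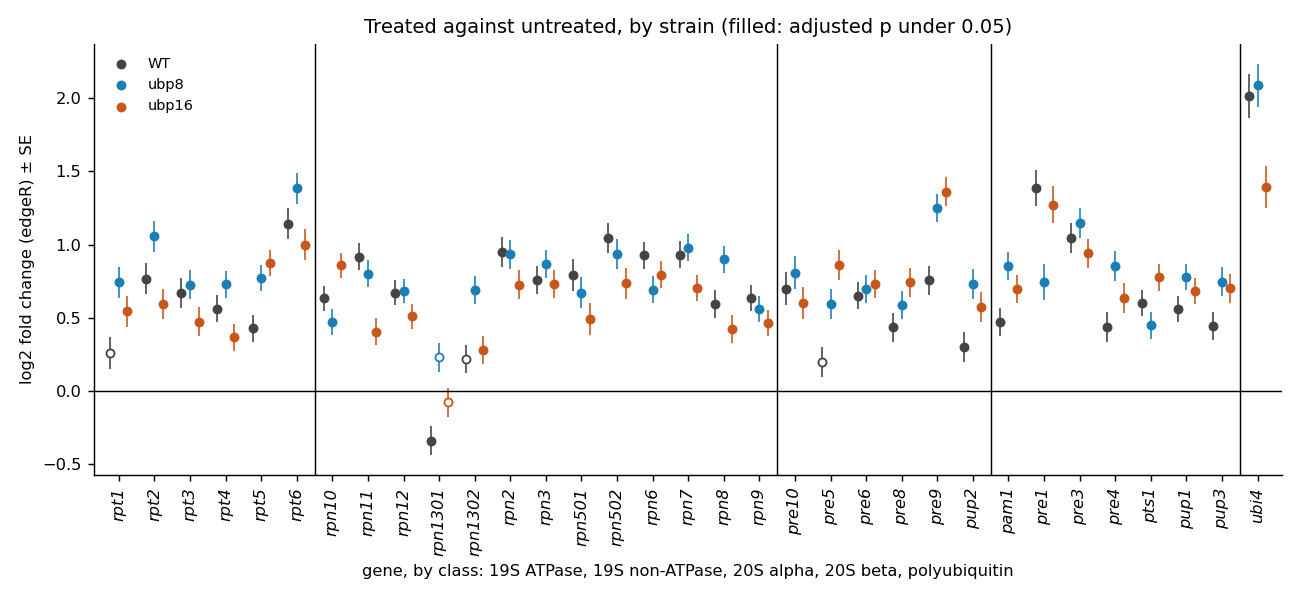
Log2 fold change of treated against untreated libraries (vertical axis, ± SE from the edgeR fit, 2 libraries per group) for each member (horizontal axis, by class), in WT, ubp8 and ubp16; filled points passed an adjusted p of 0.05. Nearly all points lie between 0.2 and 1.4, ubi4 lies highest in each strain, and rpn1301 lies lowest.

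Among the 19S ATPases, rpt6 had the largest response in each strain. Its untreated WT libraries stood at 331 and 339 CPM and the treated ones at 730 and 750. In ubp8 both untreated libraries stood at 246 and the treated ones at 664 and 618, and in ubp16 the values were 275 and 344 untreated and 611 and 626 treated. The treated libraries lay above the untreated ones in each strain, with log2 fold changes of 1.14 ± 0.11 in WT, 1.38 ± 0.11 in ubp8 and 1.00 ± 0.11 in ubp16 (adjusted p = 1.22e-07, 1.69e-08 and 6.78e-07). The ATPases rpt2, rpt3, rpt4 and rpt5 rose in all strains as well, by 0.37 to 1.06. The ATPase gene rpt1 rose in ubp8 (0.74) and ubp16 (0.54), while in WT its change of 0.26 did not pass (adjusted p = 0.055).

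Among the 13 other 19S genes, 11 rose in WT and 12 in each mutant. The scaffold gene rpn2 went from 399 and 399 CPM to 733 and 804 in WT, from 408 and 402 to 771 and 776 in ubp8, and from 425 and 504 to 754 and 786 in ubp16. Its log2 fold changes were 0.95 ± 0.10, 0.93 ± 0.10 and 0.73 ± 0.10, with no overlap between treated and untreated libraries in any strain. Of the genes of the lid, rpn3, rpn6, rpn7, rpn8, rpn9 and rpn12 rose by 0.42 to 0.98, and rpn11 rose by 0.41 to 0.92. The Rpn5 copies rpn501 and rpn502 rose by 0.79 and 1.05 in WT, where rpn502 had the largest change of this class, though the split of reads between them is uncertain.

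The exception was rpn1301, 1 of the 2 genes for the ubiquitin receptor Rpn13. Untreated WT libraries stood at 93.3 and 95.5 CPM and treated ones at 69.6 and 79.5. In ubp8 the levels were 81.2 and 70.5 untreated and 87.8 and 90.3 treated, and in ubp16 they were 103 and 115 untreated and 102 and 106 treated. In WT it fell by 0.34 ± 0.10 on the log2 scale (adjusted p = 0.00861), and without treated WT replicate 1 the adjusted p was 0.14. Its change of 0.23 in ubp8 did not pass (adjusted p = 0.055), nor did that of -0.08 in ubp16 (adjusted p = 0.544). Its partner rpn1302 rose in ubp8 (0.69) and ubp16 (0.28), the latter lost without untreated replicate 1 or treated replicate 2 of ubp16, and had 0.22 in WT (adjusted p = 0.0686).

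In the core particle, 12 of 13 genes rose in WT and 13 in each mutant. The largest WT response was that of pre1 (beta 4), which stood at 148 and 119 CPM untreated and 368 and 329 treated, a log2 fold change of 1.39 ± 0.13 (adjusted p = 9.46e-08). In ubp8 its levels were 136 and 160 untreated and 221 and 276 treated (0.75 ± 0.12), and in ubp16 131 and 123 untreated and 305 and 308 treated (1.27 ± 0.13). Beta 1, encoded by pre3, a protease-active subunit, rose by 1.05, 1.15 and 0.94 in WT, ubp8 and ubp16. The other active subunit genes, pup1 (beta 2) and pts1 (beta 5), rose by 0.56 and 0.60 in WT.

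In both mutants pre9, the gene for alpha 3, gave the largest response of the core particle. Alpha 3 takes part in gating the core in budding yeast. Its levels went from 219 and 240 CPM to 372 and 403 in WT, from 193 and 193 to 484 and 436 in ubp8, and from 222 and 247 to 613 and 591 in ubp16. The treated libraries were ordered WT, ubp8, ubp16 with no overlap, while the untreated ones of WT and ubp16 overlapped. The log2 fold changes were 0.76 ± 0.10, 1.25 ± 0.10 and 1.36 ± 0.10 (adjusted p = 5.38e-06, 1.98e-08 and 8.62e-09).

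The smallest responses of the core were those of pre5 in WT, pts1 in ubp8 and pup2 in ubp16. The alpha 6 gene pre5 stood at 244 and 258 CPM in untreated and 277 and 300 in treated WT, and its change of 0.20 ± 0.10 did not pass (adjusted p = 0.113). In ubp8 it went from 200 and 191 to 311 and 279 (0.60 ± 0.10), and in ubp16 from 236 and 258 to 486 and 412 (0.86 ± 0.10), and both changes passed.

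The beta 5 gene pts1 went from 204 and 230 to 288 and 304 CPM in ubp8, a rise of 0.45 ± 0.09 (adjusted p = 0.000571). In WT it stood at 208 and 227 untreated and 338 and 322 treated, and in ubp16 at 223 and 232 untreated and 392 and 390 treated. The alpha 5 gene pup2 went from 301 and 334 to 472 and 475 CPM in ubp16, a rise of 0.58 ± 0.10. In WT it stood at 319 and 357 untreated and 390 and 444 treated, a rise of 0.30 ± 0.10 (adjusted p = 0.0195) that did not pass without untreated replicate 1 (adjusted p = 0.204) or treated replicate 2 of WT. In ubp8 it stood at 264 and 235 untreated and 418 and 408 treated, a rise of 0.73 ± 0.10.

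Polyubiquitin had the largest response of all members in each strain. Untreated WT libraries held ubi4 at 55.5 and 60.6 CPM and treated ones at 202 and 267. In ubp8 the levels were 81.3 and 93.2 untreated and 333 and 410 treated, and in ubp16 158 and 197 untreated and 440 and 493 treated. In each strain the treated libraries lay above the untreated ones, and the untreated ubp16 libraries came near the lower treated WT library. The folds were 4.04 in WT, 4.26 in ubp8 and 2.63 in ubp16, or log2 changes of 2.01 ± 0.15, 2.09 ± 0.15 and 1.39 ± 0.14 (adjusted p = 1.03e-08, 6.06e-09 and 4.60e-07).

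**Figure D3:**
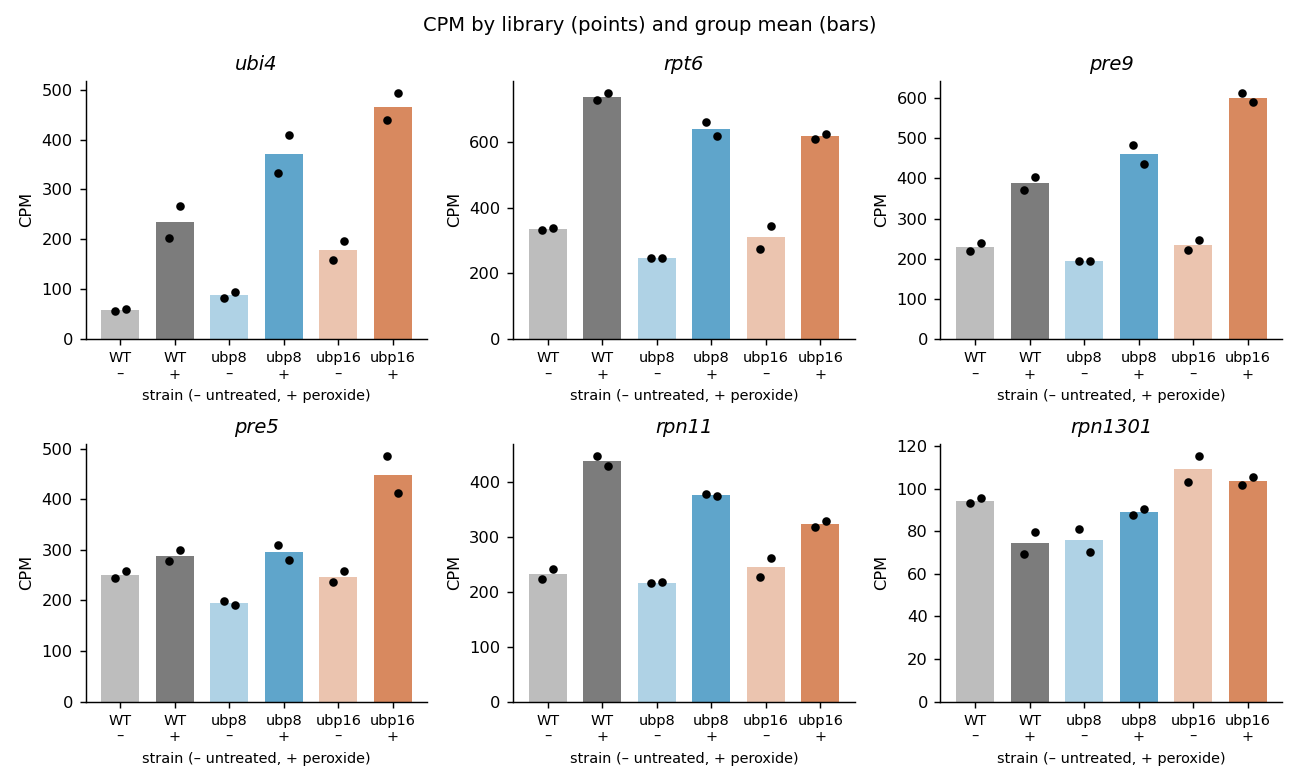
CPM of ubi4, rpt6, pre9, pre5, rpn11 and rpn1301 in each library (points) with the mean of each group of 2 (bars, from 0), untreated (light) and treated (dark). Treated ubp16 libraries are highest for ubi4, pre9 and pre5, treated WT libraries are highest for rpt6 and rpn11, and rpn1301 is lowest in treated WT and in 1 untreated ubp8 library.

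The balance between the particles was read as the mean log2(CPM + 1) of the 19 genes of the 19S particle minus that of the 13 core genes, in each library. The difference was -0.10 and -0.18 in untreated WT, -0.09 and -0.11 in treated WT, -0.05 and -0.08 in untreated ubp8, -0.10 and -0.04 in treated ubp8, and -0.07 and -0.07 in untreated ubp16. In treated ubp16 it was -0.35 and -0.27. Thus 10 libraries lay between -0.18 and -0.04, and both treated ubp16 libraries lay below all of them. The change on treatment was -0.24 in ubp16, 0.04 in WT and -0.01 in ubp8, beside a pooled SD between libraries of a group of 0.036. No test was made of this score. With mts4, scl1 and dss1 added to their particles, or with rpn501 and rpn502 left out, the change in ubp16 was -0.26 or -0.24, a choice made after seeing the data.

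Set against treated WT, the wider gap in treated ubp16 lay on the core side. The 19S mean was 8.33 ± 0.04 in treated WT and 8.33 ± 0.03 in treated ubp16 (SD, n = 2), while the core mean was 8.43 ± 0.05 and 8.64 ± 0.02. In treated ubp8 these means were 8.25 and 8.32. Before treatment the 19S and core means were 7.673 and 7.815 in WT, 7.475 and 7.538 in ubp8, and 7.754 and 7.822 in ubp16. On treatment the 19S mean rose least in ubp16 and the core mean rose most, though the core rise in ubp8 was nearly as large. The untreated ubp16 libraries differed most, with an SD of 0.103 (19S) and 0.105 (core). These ranks were not tested and are not resolved beside that spread, so how much each particle entered the change is not known. Within the core, alpha genes stood 0.31 (WT), 0.26 (ubp8) and 0.33 (ubp16) above beta genes in untreated cells. After treatment the gap was 0.24 in ubp8 and 0.33 in ubp16, and in WT it was 0.07 and 0.16 in the 2 libraries. ATPase genes stood 0.73 to 0.97 above the other 19S genes in the 12 libraries. Those other genes include rpn501 and rpn502, whose low values are uncertain and widen this gap. The alpha and ATPase gaps both compare CPM that is not per length.

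**Figure D4:**
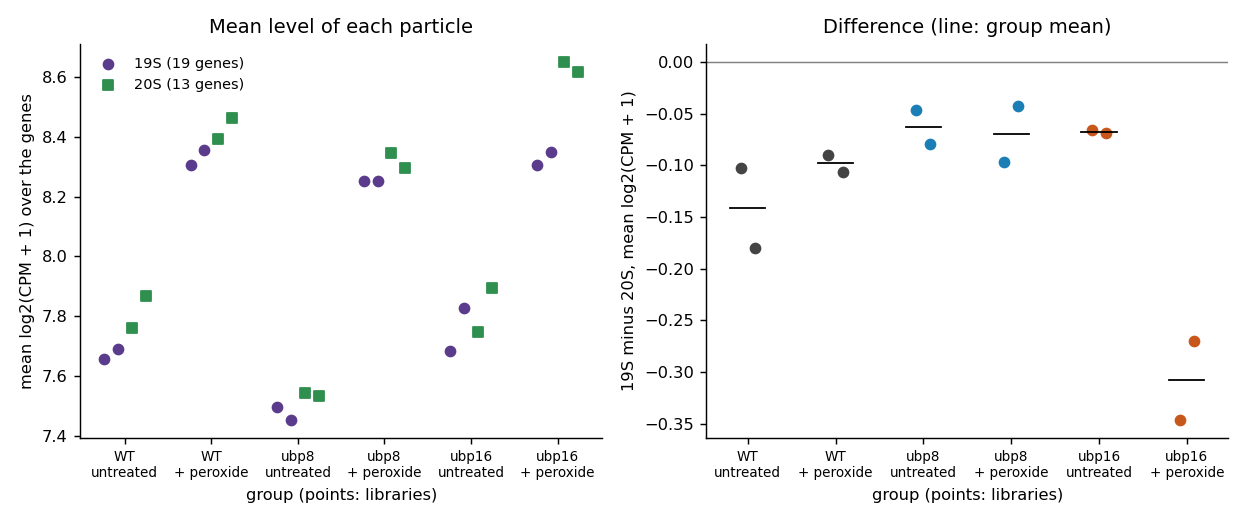
Left, mean log2(CPM + 1) over the 19 genes of the 19S particle and the 13 genes of the 20S particle in each library; right, their difference per library with the group mean as a line. Both particles are higher in treated than in untreated libraries of each strain, and the difference is lowest in both treated ubp16 libraries, at -0.35 and -0.27.

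Untreated mutants were compared with untreated WT to see whether the members differ before stress. The 2 comparisons share the WT libraries. Polyubiquitin was higher in both mutants: by 1.61 ± 0.15 in ubp16 (3.06-fold, adjusted p = 7.57e-07) and by 0.59 ± 0.15 in ubp8 (adjusted p = 0.00707). The ubp8 difference did not pass without ubp8 replicate 2 (adjusted p = 0.0816) or WT replicate 1. In the same comparisons ctt1 was higher by 2.71 in ubp16 and by 0.79 in ubp8.

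In untreated ubp16, ubi4 was the only member called: 1 of 33 was higher and 0 were lower, against 14.3% and 11.3% of all genes. At an unadjusted p under 0.05 edgeR still gave 0 lower, as did DESeq2 and limma-voom after adjustment, and 2 genes of the 19S particle were higher at the unadjusted level. The 32 subunit genes had log2 differences from -0.11 to 0.22. The ends were rpn2 at 0.22 ± 0.10 (adjusted p = 0.127) and, at -0.11 each, rpt6 and the beta 6 gene pam1. In pam1 the WT libraries stood at 165 and 201 CPM and the ubp16 ones at 163 and 176. The highest core gene was pre6 (alpha 4), with 198 and 212 CPM in WT and 220 and 238 in ubp16 (0.16 ± 0.09, adjusted p = 0.234). With library totals alone 10 members were called higher. That scaling moved the median over all genes from 0.01 to 0.12 and that of the members from 0.07 to 0.17.

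Markers of the mating types also differed in these libraries. Of 6 M-cell markers 5 were higher in untreated ubp16 than in WT, and of 3 P-cell markers 1 was, map1 (log2 difference 3.10). The P-cell markers did not move together: map2 had -1.31 (edgeR, adjusted p = 0.146) and map3 had 0.325 (adjusted p = 0.353), and neither passed. The summed M-cell markers stood at 82.0 and 103 CPM in untreated WT, 111 and 135 in untreated ubp8 and 224 and 287 in untreated ubp16. The summed P-cell markers stood at 12.4 to 14.4, 25.6 to 26.6 and 48.0 to 51.9 CPM, and 0 of the markers were at 0 in any group. Their part in the members' levels was not tested.

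In untreated ubp8, 14 members were lower than in WT and 1 was higher, against 23.8% and 15.1% of all genes. The largest falls were those of pup3 (beta 3) in the core and rpt6 in the 19S particle. In pup3 the WT libraries stood at 199 and 217 CPM and the ubp8 ones at 151 and 143, a difference of -0.50 ± 0.10 (adjusted p = 0.0016). In rpt6, given above, the difference was -0.45 ± 0.11 (adjusted p = 0.00462). At the other end were rpn2 (0.02) and pre1 (0.15), neither of which passed. The lower genes were 8 of 13 in the core and 6 of 19 in the 19S particle.

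Coding genes as a whole stood lower in the same comparison. The members' median was -0.24, that of coding genes was -0.21, and that over all genes tested, which include non-coding RNAs, was -0.01. Fitted on coding genes alone, or on genes with a mean of at least 50 counts, 5 members were lower. With library totals alone 1 was lower and 5 were higher. Without untreated WT replicate 2 the count was 1, and without untreated ubp8 replicate 2 it was 5.

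**Figure D5:**
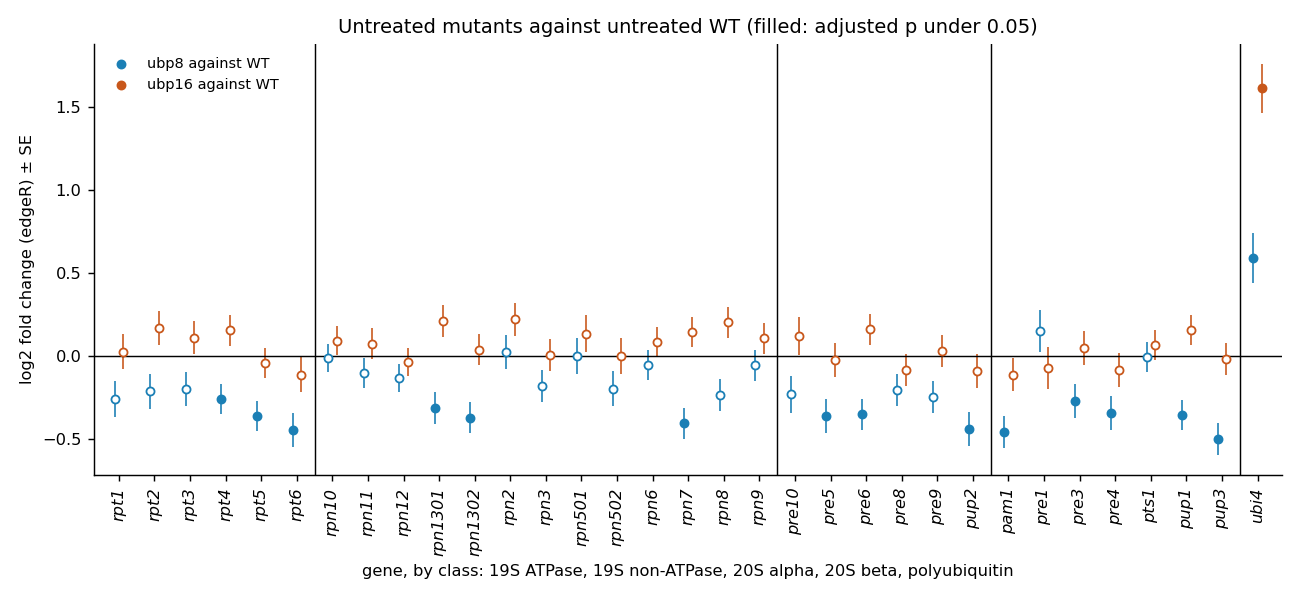
Log2 fold change of untreated ubp8 and untreated ubp16 against untreated WT (vertical axis, ± SE from the edgeR fit, 2 libraries per group) for each member (horizontal axis, by class); filled points passed an adjusted p of 0.05. Most ubp8 points lie between 0 and -0.5, the ubp16 points lie between -0.11 and 0.22, and ubi4 stands above the rest in both mutants.

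After peroxide, ubp16 and WT differed in both directions among the members: 11 were higher and 3 lower in ubp16, against 28.7% and 26.5% of all genes. Those higher were ubi4 (0.99), pre5 (0.64), pre9 (0.64), rpn1301 (0.48), rpt5 (0.40), rpn10 (0.32), rpt1 (0.31), pup1 (0.28), pts1 (0.24), pup3 (0.24) and pre6 (0.24). Those lower were rpn11 (-0.44), rpn502 (-0.31) and rpt6 (-0.26). Thus 6 of 13 core genes were higher and 0 lower by edgeR (0 at an unadjusted p under 0.05, with DESeq2 and with limma-voom), and of the 19S genes 4 were higher and 3 lower. With treated WT replicate 1 left out 6 were higher, and with either treated ubp16 replicate left out 7 were. With 1 library left out in turn, 1 to 3 members were lower. The mating type markers differed here too. Summed M-cell markers stood at 53.5 and 57.7 CPM in treated WT, 81.3 and 86.4 in treated ubp8 and 208 and 250 in treated ubp16. Summed P-cell markers stood at 11.6 and 12.1, 26.1 and 36.2, and 53.4 and 56.5 CPM, so the treated libraries of the 3 strains did not overlap in either sum. Their part in the treated comparisons was not tested.

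The gene rpn11 encodes the protease of the lid that cuts ubiquitin chains off substrates. It went from 224 and 241 to 448 and 430 CPM in WT, from 216 and 217 to 379 and 375 in ubp8, and from 227 and 262 to 319 and 329 in ubp16. The treated libraries of the 3 strains did not overlap and were ordered WT, ubp8, ubp16, the reverse of pre9. The response was 0.92 ± 0.09 in WT, 0.80 ± 0.09 in ubp8 and 0.41 ± 0.09 in ubp16. A lncRNA gene opposite 14.4% of its exon was at 0.0569% of its level at most. On the same strand another gene shares 2.3% of the rpn11 exon bases, and the part of that overlap in the counts was not tested.

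The ATPase gene rpt5 went from 218 and 232 to 292 and 313 CPM in WT, from 181 and 169 to 301 and 297 in ubp8, and from 207 and 230 to 399 and 402 in ubp16. The treated WT and ubp8 libraries overlapped, and the treated ubp16 ones stood above both. A lncRNA gene lies opposite its whole exon sequence, as one does for 89.7% of pre5. Their mean levels reached at most 4.78% of that of rpt5 and 0.815% of that of pre5 in any group. In pre9 the coding gene gef2 overlaps 5.0% of the exon, at up to 28.1% of the pre9 level.

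Several other members lie opposite coding genes of like level. Opposite 14.4% of the pre1 exon is mrp11, at up to 101% of the pre1 level, with group means of 107 and 109 CPM in untreated and treated WT, 100 and 118 in ubp8 and 128 and 121 in ubp16. Opposite 45.0% of the pre8 exon is wss2, at up to 88.5% of the pre8 level. Its group means went from 42.4 to 308 CPM in WT, from 42.0 to 160 in ubp8 and from 41.7 to 131 in ubp16. The pre8 libraries stood at 240 and 274 CPM untreated and 336 and 360 treated in WT, and the rise of pre8 was 0.44 in WT, 0.59 in ubp8 and 0.74 in ubp16. Opposite 2.9% of the rpn6 exon is htr12, at up to 150% of the rpn6 level. The part of these opposite genes in the members' values was not tested.

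Treated ubp8 and WT differed less: 1 member was higher and 5 were lower in ubp8, against 16.6% and 15.7% of all genes. Polyubiquitin was higher by 0.66 ± 0.14 (adjusted p = 0.00216, and 0.0501 without treated WT replicate 1). The lower ones were pre1 (-0.49), rpn7 (-0.36), rpn502 (-0.31), pre6 (-0.31) and rpn6 (-0.29). With treated WT replicate 1, treated WT replicate 2 or treated ubp8 replicate 1 left out 2 were lower, and 4 were higher when only the libraries compared were fitted.

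Whether the response itself differed from that of WT was tested as the interaction of strain and treatment. In ubp16, 3 members responded more and 2 less than in WT, against 13.0% and 14.4% of all genes. The larger responses were those of pre5 (difference 0.66 ± 0.14, adjusted p = 0.00264), pre9 (0.60 ± 0.14, adjusted p = 0.00349) and rpt5 (0.45 ± 0.13, adjusted p = 0.015). The smaller ones were those of rpn11 (-0.51 ± 0.13, adjusted p = 0.0077) and ubi4 (-0.62 ± 0.20, adjusted p = 0.033). With a 1.5-fold minimum, the differences of rpn11 and rpt5 are too small to be called. The differences of pre5, pre9 and rpn11 passed under each alternative fit tried, including the removal of any 1 library. That of ubi4 was lost in 4 such removals (untreated WT replicate 1, treated WT replicate 2, untreated ubp16 replicate 2 and treated ubp16 replicate 1), with adjusted p up to 0.186, and that of rpt5 in 2 (treated WT replicate 1 and untreated ubp16 replicate 1), with adjusted p up to 0.0633.

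In ubp8, 4 members responded more and 1 less than in WT, against 10.5% and 6.34% of all genes. The larger responses were those of rpn1301 (0.57 ± 0.14), pre9 (0.50 ± 0.14), rpt1 (0.48 ± 0.15) and rpn1302 (0.47 ± 0.14), and the smaller one was that of pre1 (-0.64 ± 0.18). Their adjusted p ran from 0.0127 to 0.0401. None of the 5 held when each library was left out in turn: with treated WT replicate 1 left out, 0 members passed in either direction. The difference of pre9 was lost in 8 of the 12 removals, with adjusted p up to 0.238. Both interactions use the WT libraries.

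Between the mutants, 21 members were higher and 0 lower in untreated ubp16 than in untreated ubp8, against 27.4% and 18.1% of all genes. The median of the members was 0.32 and that of coding genes 0.23, and on coding genes alone 8 were higher. Polyubiquitin was higher by 1.02 ± 0.15. Without untreated replicate 2 of either mutant 9 were higher. After peroxide 11 were higher and 0 lower, against 22.3% and 21.3% of all genes: 7 of 13 core genes and 4 of 19 genes of the 19S particle. Among these were pre5 (0.61), pre6 (0.55), rpn10 (0.49), pup3 (0.44), rpt5 (0.42), pup1 (0.42), pts1 (0.40) and pre9 (0.39), while ubi4 had 0.33 (adjusted p = 0.0677). Of the 2 counts of 0 lower by edgeR, the untreated one was 0 at an unadjusted p under 0.05 and the treated one was 1, and both were 0 with DESeq2 and limma-voom.

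The lists of genes that work with the proteasome differed in their peroxide response. Their counts stand beside the shares of all genes called higher, 26.2% in WT, 28.0% in ubp8 and 25.2% in ubp16, and lower, 27.0%, 25.8% and 25.2%. The lists are short, and no list was tested as a whole. The subunit genes mts4 (0.53, 0.71 and 0.57) and scl1 (0.46, 0.76 and 0.64), outside the naming rule, rose in WT, ubp8 and ubp16. Of 9 assembly and associated genes 8 rose in WT and 8 in ubp8, while in ubp16 6 rose and 1 fell, with median log2 fold changes of 0.78, 0.99 and 0.70. This list holds the subunit gene dss1, which rose in ubp8 (0.44) but did not pass in WT (0.14) or ubp16 (-0.05). Largest in each strain was fub1, the gene of a proteasome inhibitor (1.68, 1.93 and 1.56), followed by the chaperone gene nas6 in WT and ubp8 (1.16 and 1.43) and by ecm29, which encodes a factor bound to the whole proteasome, in ubp16 (1.14). In WT the ubiquitin hydrolase gene uch2 rose by 0.93, and in ubp8 the core assembly gene ump1 by 1.03. The tethering factor gene cut8 rose by 0.30 in WT and fell by 0.71 in ubp16, a difference of -1.02 between these responses that passed the interaction test, as did that of ecm29 (0.76).

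Of 13 E1 and E2 genes, 9 rose in WT, 12 in ubp8 and 10 in ubp16, and 0 fell (edgeR, also 0 at an unadjusted p under 0.05, with DESeq2 and with limma-voom), with medians of 0.48, 0.65 and 0.35. The E1 gene uba1 rose by 1.42, 1.64 and 1.22, and the E2 genes ubc8 (1.94, 1.61 and 1.24) and ubc6 (1.90, 1.98 and 0.97) rose with it. Of 10 shuttle and segregase genes 9 rose in WT, 9 in ubp8 and 8 in ubp16 (medians 0.69, 0.84 and 0.89), with the Cdc48 cofactor gene ufd1 at 1.51, 1.75 and 1.38 and the UBX-domain gene ubx2 at 0.76, 1.58 and 1.49. The 1 gene of this list that fell was dph1, which encodes a ubiquitin shuttle, at -1.91, -1.86 and -1.10. Ubiquitin ligases were mixed: of 10, 4 rose and 1 fell in WT, 5 and 0 in ubp8, and 4 and 2 in ubp16 (medians 0.06, 0.18 and 0.13), with san1 (1.21, 1.45 and 0.89) and hrd1 (0.65, 0.95 and 1.05) among those that rose. Of 4 genes for ubiquitin-like proteins, 1 rose and 2 fell in WT, 2 rose in ubp8 and 0 passed in ubp16 (medians -0.11, 0.24 and -0.04). That count of 0 by edgeR, and the count of 0 fusion genes called in ubp8, were also 0 at an unadjusted p under 0.05, with DESeq2 and with limma-voom.

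The other source of ubiquitin, the 4 fusion genes, did not move with ubi4. In WT ubi2 fell by 0.30 and ubi1, ubi3 and ubi5 had -0.12, -0.09 and -0.13. In ubp8 0 of 4 passed in edgeR, with values from -0.09 to 0.01. In ubp16 all 4 fell: ubi1 by 0.35, ubi2 by 0.41, ubi3 by 0.44 and ubi5 by 0.49. In treated ubp16 the fusion genes stood at 726 to 4860 CPM per kb and ubi4 at 353, against 43.9 for ubi4 in untreated WT. Reads in the ubi4 repeats may be lost, so its level beside the fusion genes is uncertain. The fusion genes encode the same 76 residues but share only 82.5% to 84.2% of bases with ubi4 unit 1.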

How the data were processed

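PolyA RNA of 12 fission yeast libraries (6 groups of 2) was prepared with a stranded TruSeq mRNA kit after hot phenol extraction, per the labels' protocols. The authors deposited 1 table of counts, whole numbers of reads for each gene in each library, with no normalization. Tools named without versions in the submitters' processing notes are STAR, HTSeq, FastQC, Trimmomatic and DESeq2. Build and strand setting are not given in the sources used here. Groups came from the sample titles. Names, exon lengths, coordinates and sequences came from RefSeq ASM294v3, to which 12602 of 12683 gene identifiers matched; the rest held 0.0642% of counts.

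Counts were fitted in R 4.3.3 with edgeR 4.0.16, with filterByExpr (8166 genes kept), TMM scaling and 1 mean per group over all 12 libraries. Quasi-likelihood tests had 6 residual degrees of freedom per gene, and their dispersions were moderated across genes. Standard errors and p-values thus also draw on the spread of other genes. Benjamini-Hochberg adjustment was made over all genes tested, with calls under 0.05. Standard errors were derived from the F statistic, as the absolute log2 fold change over its root. The script was tested on simulated data. Particle scores are means of log2(CPM + 1) and have no test. Alternatives were DESeq2 1.42.0, limma 3.58.1 (voom), other scalings and filters, a replicate block and leaving out each library. Comparisons with WT in 1 condition, and both interactions, share WT libraries.

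The members, the pathway lists and the motifs were chosen with earlier results of these data known. Values in every library are given for ubi4 and for the members with the highest and lowest log2 fold change in each particle, in each response and in each untreated mutant against WT; rpn11 and rpt5 were added after their values were seen. From each other list up to 3 called genes with the largest changes are named. The lists were assembly and associated factors, ubiquitin fusions, ubiquitin-like proteins, E1 and E2 enzymes, ligases, shuttle and segregase factors, and P-cell and M-cell markers; 7 of their names matched no gene and were left out. Repeated windows were stretches of 50, 75 or 100 bases of a member's transcript found more than once in the genome, both strands searched. Windows across a splice were left out.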

Additional observations from a re-analysis of the deposited data

Results flagged for a closer look

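In 10 cases the response of a member to peroxide differed between a mutant and WT by the interaction test, and the values are log2 differences in response, mutant minus WT. The 3 higher and 2 lower of 33 members in ubp16 stand beside 13.0% and 14.4% of all genes, and the 4 higher and 1 lower in ubp8 beside 10.5% and 6.34%, so the counts are near or below those of all genes and show nothing particular to the members. Those of ubp16 were 0.604 for pre9, 0.664 for pre5, 0.446 for rpt5, -0.512 for rpn11 and -0.62 for ubi4. Those of ubp8 were 0.495 for pre9, 0.484 for rpt1, 0.571 for rpn1301, 0.474 for rpn1302 and -0.64 for pre1. In ubp16 the values of pre9, pre5 and rpn11 passed in each alternative fit tried, whereas each of the ubp8 values was lost when treated WT replicate 1 was left out. The ubp16 value of rpn11 fell short of a 1.5-fold minimum. Whether the 2 mutants differ from each other in these responses was not tested.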

How the results depend on the processing

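Of 580 alternative values for 33 results, 480 stayed close to the reported one and 100 moved. Only 8 of the 33 results had no moved value. Of the changes in the 19S minus 20S score, 2 near 0 changed sign within the spread between libraries: that of the ubp8 response (-0.007) ran from -0.034 to 0.020, and that of untreated ubp16 against ubp8 (-0.005) from -0.021 to 0.011. Counts of members that rose after peroxide stayed within 1.5 times: over the 22 alternatives 21 to 32 members rose in WT, 29 to 33 in ubp8 and 22 to 32 in ubp16. The counts below are of members called, and where they moved, the cause was not tested beyond what the setting itself changes. Shares of all genes called under the alternative fits are not given, so these counts do not separate the members from genes as a whole.

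Scaling by library totals moved the median of all genes from -0.04 to -0.23 in the WT response and from -0.01 to 0.28 in untreated ubp8 against WT. With it, 1 member fell in ubp16 after peroxide. In untreated ubp8 against WT 5 were higher and 1 lower, in untreated ubp16 against WT 10 were higher, and in treated ubp8 against WT 8 were higher and 1 lower. In ubp16 against ubp8, 10 were higher and 1 lower untreated, and 3 lower treated. On coding genes alone, untreated ubp8 against WT gave 5 lower, treated ubp8 against WT 4 higher, treated ubp16 against WT 5 lower, ubp16 against ubp8 8 higher and 1 lower untreated and 2 lower treated, and the ubp8 interaction 2 in each direction. With a mean of at least 50 counts these were 5 lower, 4 higher, then 9 higher and 1 lower untreated and 1 lower treated, and 2 in each direction. With no filter, ubp16 against ubp8 untreated had 1 lower and the ubp8 interaction 1 higher. With only the libraries compared, treated ubp8 against WT had 4 higher, treated ubp16 against WT 5 lower, treated ubp16 against ubp8 1 lower and the ubp8 interaction 1 higher. With a 1.5-fold minimum, 0 were lower in the WT response, in untreated and treated ubp8 against WT and in treated ubp16 against WT, where 3 were higher; 1 was higher in ubp16 against ubp8 in each condition, 0 in the ubp8 interaction, and 1 lower in the ubp16 interaction.

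With each library left out in turn, the ranges were 0 to 1 lower in the WT response, 0 to 1 higher and 1 to 17 lower in untreated ubp8 against WT, 1 to 2 higher in untreated ubp16 against WT, 0 to 3 higher and 2 to 5 lower in treated ubp8 against WT, and 6 to 12 higher and 1 to 3 lower in treated ubp16 against WT. In ubp16 against ubp8 they were 9 to 24 higher untreated and 0 to 1 lower treated. For the interactions they were 0 to 9 higher and 0 to 1 lower in ubp8, and 2 to 5 higher and 1 to 2 lower in ubp16. The change in the 19S minus 20S score ranged from 0.006 to 0.083 in the WT response, -0.278 to -0.202 in the ubp16 response, 0.041 to 0.117 in untreated ubp8 against WT, 0.035 to 0.112 in untreated ubp16 against WT, -0.248 to -0.172 in treated ubp16 against WT, -0.276 to -0.200 in treated ubp16 against ubp8, -0.090 to -0.013 in the ubp8 interaction and -0.323 to -0.246 in the ubp16 interaction.

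The replicate numbers of the labels were also fitted as a replicate block. It gave 3 members higher in treated ubp8 against WT in place of 1, and the other counts stayed within 1.5 times. Correlations of the deviations of same-numbered libraries over the 15 pairs of groups ran from -0.0886 to 0.191. Between untreated and treated libraries of 1 strain they were 0.112 in WT, 0.18 in ubp8 and 0.144 in ubp16, all positive, and with the block 30, 33 and 32 members rose and 1, 0 and 0 fell. With 2 libraries per group and no label that ties them, whether the numbers pair the libraries is not known. With 2 libraries per group, small differences can be missed.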
